A study of Mus musculus with 7 samples.

Results

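The aminoacyl-tRNA synthetase genes were followed through the cell types of the mouse aorta. The set is a fixed list of 34 genes out of 31253 in the count tables, 19 for enzymes of the cytosol and 15 for enzymes of the mitochondrion. Gars and Kars, counted here with the cytosolic genes, each serve both compartments. All 34 were found under their listed symbols.

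Libraries came from aortas of Slc38a2flox/flox mice (3 libraries, flox control) and Slc38a2deltaEC mice (4 libraries, endothelial knockout). Both groups carry the conditional Slc38a2 allele by name, and both received a high-salt diet for 3 weeks, so no library shows the normal diet. Slc38a2 encodes SNAT2, a sodium-coupled carrier of neutral amino acids. The driver of recombination, the age and sex of the mice, and whether each library is a separate animal are not stated in the labels. P-values between genotypes within a cell type therefore measure the spread between libraries, which may be technical. P-values between cell types, and for genotype effects that differ between them, come from fits with the library as a block. They measure how differences between cell types vary from library to library. Single cells were captured on the BD Rhapsody system, which tags each captured transcript with a unique molecular identifier (UMI).

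The 7 libraries held 6167 to 13792 barcodes each and 22646246 to 73102988 UMIs, and 67477 of 76359 barcodes were kept. Of 73474 distinct barcode sequences, 2826 occurred in more than 1 library. Goblet cells, a secretory epithelial type, are what the labels call the sample. Their markers were absent at that level: 0 kept cells had UMIs for at least 3 of 7, with no UMI at all for Tff3 or Clca1. Cells were instead gated on markers into 4 main classes: 1264 endothelial-like, 19085 smooth muscle-like, 33697 fibroblast-like and 3847 macrophage-like cells. The endothelial-like sums rested on 50 to 424 cells and 190548 to 1592024 UMIs per library, the thinnest of the 4 classes in cells. Knockout library 4 held 338 smooth muscle-like cells, and flox control library 3 held 154 macrophage-like cells. The targeted gene was still counted in the knockouts: Slc38a2 stood at 371.0, 361.8 and 267.1 CPM (counts per 1000000) in endothelial-like cells of flox controls 1 to 3, and at 174.6, 253.8, 307.3 and 273.5 CPM in knockouts 1 to 4. The groups overlapped, and the log2 difference of -0.42 ± 0.21 (SE) did not pass the test (edgeR adjusted p = 0.74). The labels do not say which exon is removed, so these counts do not check the deletion.

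Each synthetase joins an amino acid to its transfer RNA, the step that supplies the ribosome. Mammals keep separate sets of enzymes for the cytosol and for the mitochondrion, both encoded in the nucleus. Several cytosolic enzymes, among them those for arginine, aspartate, glutamine, glutamate with proline, isoleucine, leucine and lysine, sit in a multisynthetase complex held by the scaffold proteins Aimp1, Aimp2 and Eef1e1. Many cytosolic synthetase genes are known targets of ATF4, the transcription factor that answers amino acid shortage and stress of the endoplasmic reticulum, and Wars is known to be induced by interferon.

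The share of transcripts given to synthetases differed among cell types. The 19 cytosolic genes made up 687 UMIs per 1000000 in endothelial-like cells (exact Clopper-Pearson 95% interval 665 to 710) and 671 in smooth muscle-like cells (665 to 676). They made up 838 in fibroblast-like cells (834 to 842) and 842 in macrophage-like cells (829 to 855). The 15 mitochondrial genes ran in another order, with 151 UMIs per 1000000 in endothelial-like cells (141 to 162), 124 in smooth muscle-like cells (122 to 127) and 105 in each of the fibroblast-like (103 to 106) and macrophage-like (100.2 to 109.5) classes. Lymphocytes stood highest: T cell-like cells gave 1531 cytosolic UMIs per 1000000 (1432 to 1636, 203 cells), B cell-like cells 1236 (1111 to 1371, 142 cells) and NK-like cells 1624 (1372 to 1909, 37 cells). Neutrophil-like cells, which are short-lived granulocytes, gave 201 (158 to 251), and erythroid-like cells 213 (182 to 248). These intervals cover counting error only, and the rarer classes were too few for a comparison over libraries. Over libraries, the cytosolic share was 701 ± 69.1 in endothelial-like, 665.0 ± 45.8 in smooth muscle-like, 841 ± 86.8 in fibroblast-like and 852 ± 79.9 in macrophage-like cells (SD, n = 7 each), so the first pair and the last pair differed by less than their spread.

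**Figure D1:**
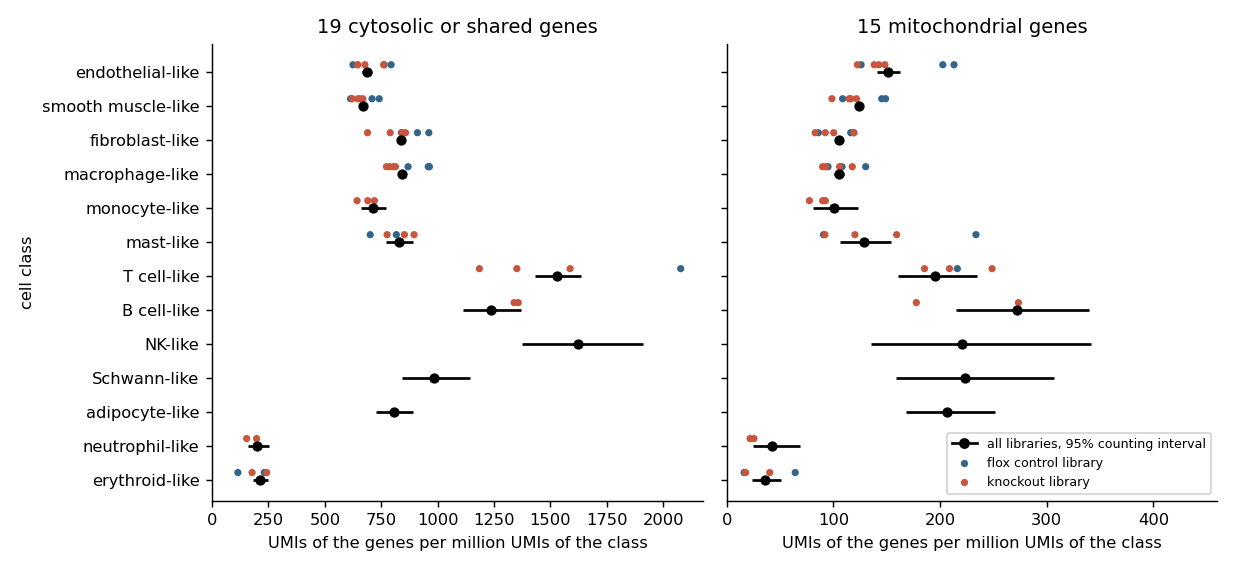
UMIs of the 19 cytosolic or shared genes (left) and the 15 mitochondrial genes (right) per 1000000 UMIs of each cell class. Black points pool all libraries with exact 95% counting intervals, and small points are single libraries with at least 20 cells of the class. T cell-like and NK-like cells stand highest on the left and neutrophil-like and erythroid-like cells lowest on both sides.

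Each main class was then set against the mean of the other 3 with the library as a block, over 12735 genes. Of the 34 members, 31 passed the filter on low counts, and Aars2, Pars2 and Vars2 did not. In endothelial-like cells 15 of 31 members differed (52.6% of all genes tested), 5 higher (25% of all genes) and 10 lower (27.6%). In smooth muscle-like cells 20 of 31 differed (77.8% of all genes), 12 higher (40.9%) and 8 lower (36.9%). In fibroblast-like cells it was 20 of 31 (69.4%), 9 higher (35.7%) and 11 lower (33.8%), and in macrophage-like cells 17 of 31 (79.1%), 9 higher (35.0%) and 8 lower (44.2%). These shares lie near or below those of all genes, so differing between cell types was no more common in this family than in the transcriptome. The split by compartment was less even, as the heat map of class differences shows.

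**Figure D2:**
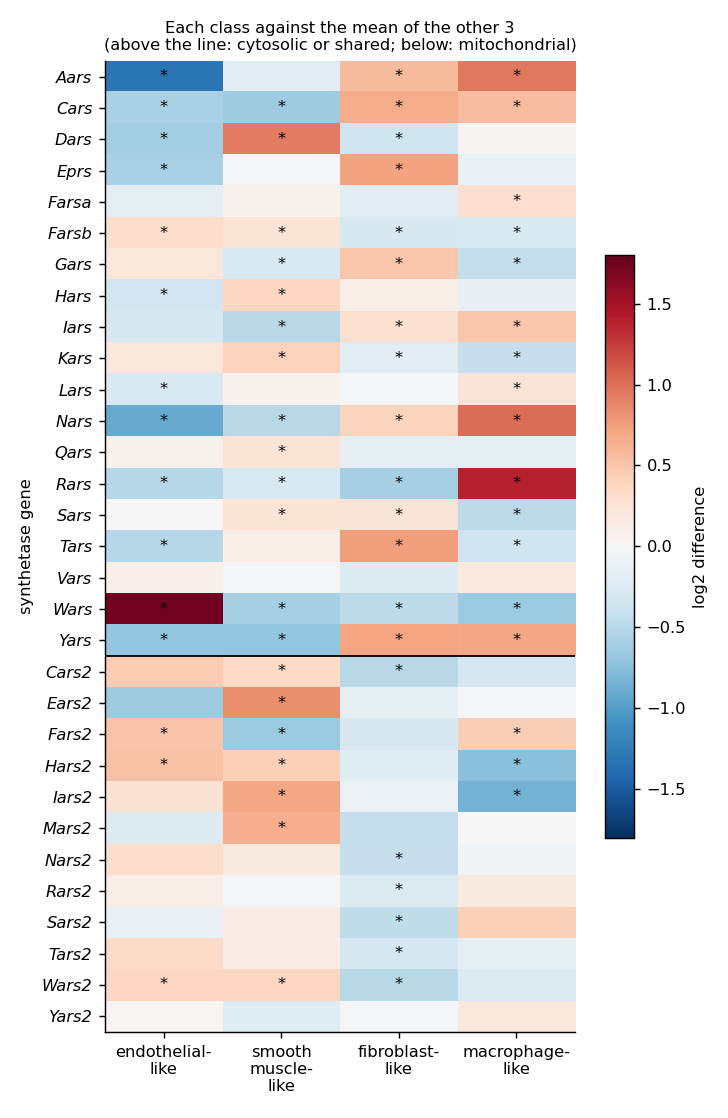
Log2 difference of each class (columns) from the mean of the other 3, for the 31 members tested (rows). Colour gives the difference from blue (lower) to red (higher), and stars mark edgeR adjusted p below 0.05. The fibroblast-like column is below 0 for all 12 mitochondrial genes, and Wars, Aars and Rars hold the strongest single colours.

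Scaling moved part of this split. Without TMM factors the median of all genes shifted by 0.26 on the log2 scale in endothelial-like cells and by -0.17 in smooth muscle-like cells. The split of calls then became 10 higher and 5 lower in endothelial-like cells, 5 and 11 in smooth muscle-like cells, 7 and 12 in macrophage-like cells, and remained 9 and 11 in fibroblast-like cells. The members named for each class kept their direction under both scalings.

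In endothelial-like cells, 10 of 19 cytosolic members were called lower than the other classes (27.6% of all genes) and 2 higher (25%). The summed share of UMIs of the 19 was nevertheless not below that of smooth muscle-like cells. All 10 members called lower were cytosolic, led by Aars, Nars, Yars and Dars, which charge alanine, asparagine, tyrosine and aspartate, and the median over 19 cytosolic members was -0.29 against -0.05 over all genes; without TMM factors 5 were called lower, 4 were called higher and the median was -0.03. Aars (ENSMUSG00000031960, chromosome 8, 111033144 to 111057664, GRCm38) ranged from 4.45 to 21.8 CPM with a median of 14.9 in endothelial-like cells. It ranged from 22.2 to 36.6 in smooth muscle-like, 32.8 to 48.0 in fibroblast-like and 33.8 to 80.4 in macrophage-like cells, so every endothelial value lay below every value of the other classes. The endothelial level was 2.49-fold lower than the mean of the others (log2 -1.32 ± 0.20 SE, edgeR adjusted p = 4.6e-06), with only 1 to 27 Aars UMIs behind each endothelial value. Nars was lower by a log2 difference of -0.91 ± 0.12 (adjusted p = 3.8e-07 in edgeR), with 66.0 to 102.7 CPM in endothelial-like cells against 142.9 to 300.5 in macrophage-like cells.

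Wars went the other way and was the member with the largest endothelial excess. It encodes the cytosolic tryptophan enzyme (ENSMUSG00000021266, chromosome 12, 108860030 to 108894174). In endothelial-like cells it stood at 15.3, 13.7 and 31.2 CPM in flox controls 1 to 3 and at 32.7, 17.5, 19.5 and 66.8 CPM in knockouts 1 to 4. In the other 3 classes all 21 values lay between 6.36 and 12.1 CPM, below every endothelial value. The endothelial level was 3.33-fold higher than the mean of the other classes (log2 1.74 ± 0.21 SE, edgeR adjusted p = 9.3e-08). Knockout library 4 carried much of the size: without it the log2 difference was 1.16 (adjusted p = 2.8e-06). That library also had the highest interferon signal in endothelial-like cells, with a summed level of 9827 CPM over the interferon list against 3256 to 4867 in the other 6. Gbp2, an interferon-induced GTPase, read 635.9 CPM there against 145.4 to 253.7, and B2m, the light chain of class I histocompatibility molecules, 5171 against 1490 to 3110. By genotype, the summed list ran from 3256 to 4416 CPM in the flox controls and from 4441 to 9827 in the knockouts. Of 31 listed genes tested between genotypes in this class, 28 lay above 0 (49.1% of all genes) and 0 were called. Their median log2 difference was 0.67, and the sum was not tested. As a class, endothelial-like cells were called higher for 29 of 34 tested interferon genes (25% of all genes) and lower for 0 (27.6%), with a median log2 difference of 1.63. Smooth muscle-like cells were called lower for 34 of 34 (36.9% of all genes). Macrophage-like cells were called higher for 21 (35.0%) and lower for 5 (44.2%), and fibroblast-like cells higher for 7 (35.7%) and lower for 13 (33.8%). Wars was called lower in each of these other 3 classes, each set against a mean that includes the endothelial-like cells. In pairs, Wars did not pass between fibroblast-like and smooth muscle-like cells or between smooth muscle-like and macrophage-like cells (edgeR adjusted p = 0.58 and 0.85). It did not pass between fibroblast-like and macrophage-like cells either. Flox control 3 had a comparable interferon sum in macrophage-like cells, 9060 CPM against 3322 to 5040, and Wars there was 7.66 CPM on only 4 UMIs, against 6.72 to 9.73 in the other libraries. The part of interferon in the level of Wars was not tested.

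**Figure D3:**
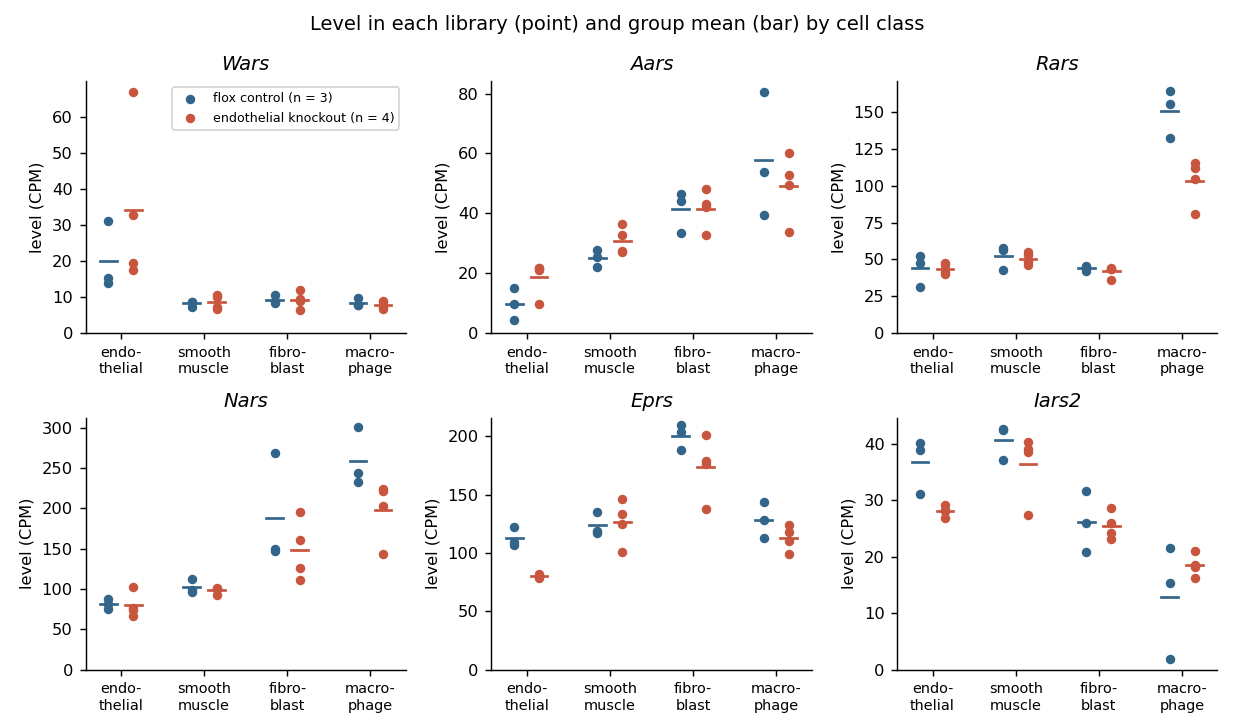
Level (CPM, linear axis from 0) of 6 synthetase genes in each library, by class, with flox controls in blue (n = 3), knockouts in red (n = 4) and bars at the group mean. Wars is high only in the endothelial-like column, where 1 knockout library reaches 66.8 CPM, and Rars and Nars are highest in the macrophage-like column.

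The other members called higher in endothelial-like cells had smaller differences. They were 3 mitochondrial enzymes, Hars2 (0.53 ± 0.19 SE), Fars2 (0.52 ± 0.21) and Wars2 (0.37 ± 0.16), and Farsb (0.31 ± 0.11), the beta subunit of the cytosolic phenylalanine enzyme, all on the log2 scale. The 3 mitochondrial calls were weak (edgeR adjusted p = 0.019, 0.038 and 0.0497), and each was lost when some single library was left out. Of 12 mitochondrial members tested 9 lay above the other classes in endothelial-like cells, with a median of 0.28, where 47.3% of all genes did so.

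Macrophage-like cells were marked by Rars, the arginine enzyme of the multisynthetase complex (ENSMUSG00000018848, chromosome 11, 35808381 to 35834506). It stood at 155.3, 132.3 and 164.6 CPM in macrophage-like cells of flox controls 1 to 3 and at 81.0, 115.3, 112.3 and 104.9 CPM in knockouts 1 to 4. All 21 values of the other classes lay between 31.2 and 58.1 CPM. The level was 2.62-fold higher than the mean of the others (log2 1.39 ± 0.09 SE, edgeR adjusted p = 1.2e-13). Nars, Aars and Yars followed with log2 differences of 1.01 ± 0.09, 0.96 ± 0.13 and 0.70 ± 0.10. Lowest against the other classes were Iars2 (-0.85 ± 0.12) and Hars2 (-0.75 ± 0.15), mitochondrial isoleucine and histidine enzymes, then Wars (-0.67 ± 0.19) and Sars (-0.48 ± 0.10), the serine enzyme. Of 12 mitochondrial members 5 lay above the other classes, where 44.1% of all genes did. The other members of the complex were split: Iars and Lars were called higher (0.50 and 0.23), Kars was called lower (-0.41), and Dars (0.05), Eprs (-0.12) and Qars (-0.16) did not pass.

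Smooth muscle-like cells had the highest Dars, which charges aspartate (ENSMUSG00000026356, chromosome 1, 128363707 to 128417368). It ranged from 42.7 to 64.3 CPM with a median of 58.3 in smooth muscle-like cells, against 13.4 to 36.4 in endothelial-like, 26.0 to 33.1 in fibroblast-like and 24.4 to 43.7 in macrophage-like cells. Only the macrophage-like range overlapped the smooth muscle-like one, and the level was 1.91-fold higher than the mean of the others (log2 0.94 ± 0.08 SE, edgeR adjusted p = 4.0e-11). The next largest rises were all mitochondrial: Ears2, the glutamate enzyme (0.84 ± 0.21), Iars2 (0.70 ± 0.09) and Mars2, the methionine enzyme (0.65 ± 0.23). Over all libraries Ears2 had only 9 UMIs in endothelial-like and 41 in macrophage-like cells, and Mars2 16 and 58, so those levels rest on few counts. Iars2 ranged from 27.4 to 42.6 CPM in smooth muscle-like and from 1.91 (1 UMI, in flox control 3) to 21.5 in macrophage-like cells, and these ranges did not overlap. Yars (-0.72 ± 0.10), Fars2 (-0.67 ± 0.15), Cars, the cysteine enzyme (-0.64 ± 0.14), and Wars (-0.60 ± 0.16) were lowest against the rest. Of 12 mitochondrial members 9 lay above the other classes (51.8% of all genes did), and 6 of 12 without TMM factors. UMIs of the mitochondrial genome itself were 15.3% ± 1.65 of all UMIs in smooth muscle-like cells, 7.60% ± 1.40 in endothelial-like, 5.51% ± 0.81 in macrophage-like and 4.81% ± 0.61 in fibroblast-like cells (SD, n = 7). The summed share of the mitochondrial synthetase genes had another order, with endothelial-like cells highest. With cells limited to 10% of UMIs from the mitochondrial genome, only 2696 smooth muscle-like cells remained. Then 4 of 9 mitochondrial members tested lay above the other classes, and 10 members rather than 20 were called. The part of mitochondrial UMIs in these differences was not tested.

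In fibroblast-like cells the members called higher were all cytosolic and the mitochondrial members lay below the other classes, with medians of 0.10 and -0.30 on the log2 scale. The gap between compartments was wider in endothelial-like cells, with medians of -0.29 and 0.28 in the opposite order. Of 19 cytosolic members, 9 were called higher in fibroblast-like cells (35.7% of all genes) and 5 lower (33.8%). The 9 were Tars (0.75 ± 0.08), Eprs (0.72 ± 0.07), Yars (0.71 ± 0.09), Cars (0.67 ± 0.12), Aars, Gars, Nars, Iars and Sars. Of the 12 mitochondrial members tested 0 lay above the other classes, where 49.4% of all genes did, and 6 were called lower (33.8% of all genes). That count was 3 without flox control 1 or without knockout 3, 4 without flox control 2 or without knockout 2, and 2 without the filter on low counts. Under the alternatives that kept the filter on low counts, 0 to 2 mitochondrial members lay above, and without the filter 4 of 15 did. Eprs, whose product charges both glutamate and proline (ENSMUSG00000026615, chromosome 1, 185363044 to 185428360), ranged from 137.7 to 209.2 CPM with a median of 188.0 in fibroblast-like cells. It ranged from 78.4 to 122.5 in endothelial-like, 100.6 to 146.3 in smooth muscle-like and 98.7 to 143.3 in macrophage-like cells. The level was 1.65-fold higher than the mean of the others (edgeR adjusted p = 9.5e-10), and only the lowest fibroblast value fell inside the other ranges. Rars (-0.60 ± 0.09), Cars2 (-0.50 ± 0.13), Wars2 (-0.50 ± 0.10) and Wars (-0.47 ± 0.14) were the lowest against the rest. Genes of the ATF4 list, outside the family, were often higher in the same class. Of 29 tested members of that list, 22 were called higher (35.7% of all genes) and 2 lower (33.8%). Their median log2 difference was 1.09, and Atf5, Stc2 and Phgdh led. In macrophage-like cells 13 were called higher (35.0% of all genes) and 12 lower (44.2%). The counts were 8 (40.9%) and 16 (36.9%) in smooth muscle-like cells, and 6 (25%) and 16 (27.6%) in endothelial-like cells. The summed level of the list, which its most abundant genes set, was nevertheless higher in macrophage-like than in fibroblast-like cells in 7 of 7 libraries.

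ATF4 binds composite sites with the core TGATGNAAN, and promoters of the members were read for it on both strands. The RefSeq promoter table (GRCm38.p6), with 250 bases before to 50 after each start, held 25 of the 34 members. The core stood in 5 of 12 cytosolic members, Aars, Gars, Iars, Tars and Yars, and in 0 of 13 mitochondrial members, against 3.95% of 32851 promoters in the table. All 5 were among the 9 members called higher in fibroblast-like cells. In macrophage-like cells they split, with Aars, Iars and Yars called higher and Gars and Tars lower. Eprs and Sars, which were also called higher there, had no match in this window, and the table held no entry for Cars or Nars. A match is a description of letters and not evidence of binding. The stretches from 120 bases before to 25 after the start follow because these 5 genes share the core and were all called higher in fibroblast-like cells, with each match in capitals, shown along the strand of the gene.
Aars, chr8:111033722-111033866, plus strand: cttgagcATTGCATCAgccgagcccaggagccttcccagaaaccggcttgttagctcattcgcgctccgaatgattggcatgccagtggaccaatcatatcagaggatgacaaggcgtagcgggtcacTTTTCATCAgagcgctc
Gars, chr6:55037881-55038025, plus strand: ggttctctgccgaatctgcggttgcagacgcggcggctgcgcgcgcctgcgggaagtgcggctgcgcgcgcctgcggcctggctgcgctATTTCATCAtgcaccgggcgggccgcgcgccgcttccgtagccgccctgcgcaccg
Iars, chr13:49682010-49682154, plus strand: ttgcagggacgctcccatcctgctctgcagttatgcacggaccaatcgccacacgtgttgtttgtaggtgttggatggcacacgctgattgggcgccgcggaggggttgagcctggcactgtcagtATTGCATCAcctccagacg
Tars, chr15:11399634-11399778, minus strand: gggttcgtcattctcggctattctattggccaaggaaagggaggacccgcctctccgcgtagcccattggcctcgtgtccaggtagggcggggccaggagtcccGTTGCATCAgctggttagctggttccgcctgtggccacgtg
Yars, chr4:129189783-129189927, plus strand: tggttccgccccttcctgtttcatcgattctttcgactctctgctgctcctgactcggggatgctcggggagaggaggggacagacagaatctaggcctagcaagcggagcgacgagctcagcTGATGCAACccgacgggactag
The matches ATTGCATCA in Aars and in Iars are the same 9 letters. In Aars, Gars, Iars and Tars the core lies on the opposite strand, so its reverse complement is what is printed, and in Yars (TGATGCAAC) it lies on the strand of the gene. The match starts lie 113 bases before and 9 after the start in Aars, 31 before in Gars, 7 after in Iars, 16 before in Tars and 4 after in Yars.

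Levels of these genes also differed between libraries. Flox control 3 held the highest level of 9 of 19 cytosolic members in fibroblast-like cells, where it was highest for 20.5% of all genes, and of 9 of 19 in macrophage-like cells (18.9% of all genes). Other libraries held many of the highest levels elsewhere: flox control 1 had 11 of 34 members in smooth muscle-like cells (17.4% of all genes), flox control 2 had 7 of 22 in endothelial-like cells (13.5%), and knockout 1 had 10 of 34 in fibroblast-like cells (17.7%). In fibroblast-like cells the 5 genes with the core were 1.09 to 1.64 times the median of the other 6 libraries there, with a median of 1.44, and all 5 were above 1. The 7 other cytosolic members in the promoter table had a median ratio of 0.99, the 7 cytosolic members without a promoter there 1.04, and the 15 mitochondrial members 0.90. Gars read 63.2 CPM in flox control 3 against 35.6 to 40.0 in the other 6 libraries, and Yars 40.5 against 22.5 to 29.8. Nars, for which no promoter was read, had the highest ratio, 268.0 CPM against 110.7 to 195.0. In macrophage-like cells the 5 genes were at 1.02 to 1.76 times, with a median of 1.33, against 0.84 for the 7 others in the table, 1.27 for the 7 without a promoter there and 1.20 for 9 mitochondrial members, so the genes with the core were not set apart in that class. These macrophage ratios rest on 579163 UMIs. In endothelial-like cells, with 50 cells in this library, 2 of the 5 lay above 1, and in smooth muscle-like cells 2 of 5. Of the ATF4 list, 23 of 32 tested genes were highest in flox control 3 in fibroblast-like cells and 0 lowest. Among them Chac1 read 26.0 CPM against 2.26 to 6.51, Psat1, of serine synthesis, 37.0 against 7.96 to 16.5, and Asns, asparagine synthetase, 20.5 against 10.7 to 14.2. In macrophage-like cells the list was split, with 12 of 23 tested genes highest and 4 lowest in that library. Slc7a11, the cystine carrier, read 231.6 CPM there against 20.8 to 63.0, while Psat1 read 11.5 against 6.98 to 12.5 and Chac1 had 0 UMIs. In smooth muscle-like cells 7 of 30 tested genes of the list were highest there (14.4% of all genes), and in endothelial-like cells 4 of 16 (15.5%). Flox control 3 also had the fewest barcodes, the lowest median of 3085 UMIs per kept cell and the highest median share of mitochondrial UMIs, 7.47%, and their part in these levels was not tested.

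**Figure D4:**
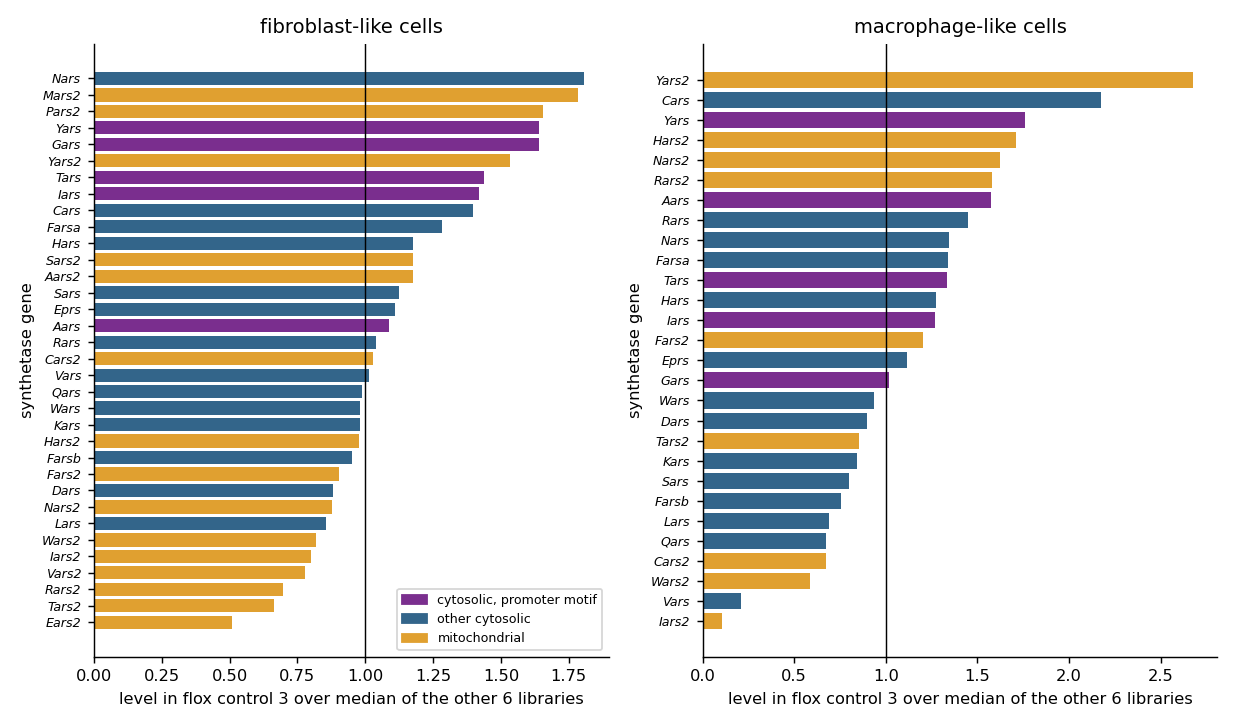
Level in flox control 3 over the median of the other 6 libraries for each member tested, in fibroblast-like (left, 34 genes) and macrophage-like cells (right, 28 genes). Bars start at 0 and the line marks a ratio of 1; all 5 genes with the promoter core (purple) lie above 1 in both classes, alongside other members that also do.

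Partners of the synthetases were read from a list of scaffold and charging genes. Of 13 tested, 6 were called higher in smooth muscle-like cells (40.9% of all genes) and 0 lower (36.9%), led by the scaffold genes Aimp1 (1.11 ± 0.06) and Aimp2 (1.5 ± 0.13) and by Pstk, which acts on the selenocysteine transfer RNA (1.34). In macrophage-like cells 7 were called lower (44.2% of all genes) and 3 higher (35.0%), with Aimp1 at -0.93 ± 0.08. Aimp1 ranged from 83.4 to 161.5 CPM in smooth muscle-like and from 33.5 to 55.5 in macrophage-like cells, without overlap. Rars and Aimp1, which meet in the complex, therefore lay in opposite directions in macrophage-like cells. A list of elongation factor genes, those of elongation factor 1 together with Eef2, had 5 of 6 genes tested. Of these 5, 4 were called higher in smooth muscle-like cells (40.9% of all genes) and 4 lower in macrophage-like cells (44.2%), with Eef1d at 0.60 ± 0.06 and -0.79 ± 0.07.

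Deletion in the endothelium was the comparison of the study, and no synthetase gene passed the genotype test in any class. In endothelial-like cells 22 of the 34 members could be tested and 0 were called, in smooth muscle-like cells 0 of 34, in fibroblast-like cells 0 of 34 and in macrophage-like cells 0 of 28. Among all genes edgeR also called 0 (0.0%) in each class, of 8211, 12831, 15227 and 10361 genes. DESeq2 called 0, 9, 6 and 4 genes in these classes, with 0 members among them. At an unadjusted p under 0.05 the members numbered 3 of 22 in endothelial-like cells (6.76% of all genes), 1 of 34 in smooth muscle-like (4.78%), 1 of 34 in fibroblast-like (4.51%) and 2 of 28 in macrophage-like cells (8.13%). On simulated counts the same test recovered 8% of genes changed 2-fold and 76% of genes changed 4-fold in endothelial-like cells, so 2-fold differences were mostly not detectable there. Recovery of 2-fold changes was 26.9% in macrophage-like, 47.5% in fibroblast-like and 63.7% in smooth muscle-like cells, so many would be missed there too.

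The 3 members with the smallest p in endothelial-like cells were Eprs, Nars2 and Kars, none of which passed. Eprs stood at 109.0, 122.5 and 106.8 CPM in flox controls 1 to 3 and at 80.0, 78.4, 81.7 and 80.3 CPM in knockouts 1 to 4. The groups did not overlap, as for 3.85% of all genes in this direction, and the knockout level was 1.44-fold lower (log2 -0.53 ± 0.17 SE, 95% interval -0.90 to -0.15, edgeR adjusted p = 0.73). Kars, the lysine enzyme, stood at 24.9, 34.4 and 17.8 CPM in the flox controls and at 40.0, 41.3, 42.0 and 50.9 CPM in the knockouts, also without overlap (4.27% of all genes in this direction). Its log2 difference was 0.65 ± 0.25 (edgeR adjusted p = 0.73). Nars2, the mitochondrial asparagine enzyme, read 17.2, 14.9 and 17.8 CPM in the flox controls and 18.2, 6.19, 5.45 and 4.29 CPM in the knockouts, with knockout 1 level with the controls and the other knockouts below them (log2 -1.34 ± 0.50, adjusted p = 0.73 in edgeR). All of these Nars2 values together rest on only 51 UMIs, and the part of counting error in the pattern was not tested. Iars2 was the only other member without overlap, lower in the knockouts (-0.46 ± 0.23, edgeR adjusted p = 0.74). Wars, at the values given above, had a log2 difference of 1.00 ± 0.57 (edgeR adjusted p = 0.74), which was 0.24 without knockout library 4.

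**Figure D5:**
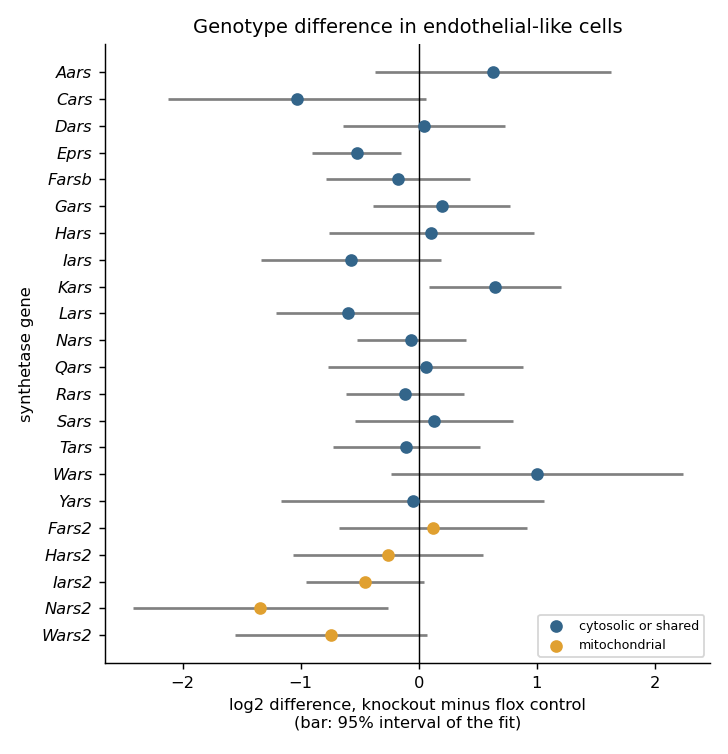
Log2 difference between knockout and flox control in endothelial-like cells for the 22 members tested, with 95% intervals of the edgeR fit; blue points are cytosolic or shared genes and yellow points mitochondrial genes. The intervals of Eprs, Kars and Nars2 leave out 0 before adjustment, and the widest span more than 2 units.

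Of the 22 members 9 had a difference above 0 in endothelial-like cells (49.1% of all genes did). The same held for 10 of 34 in smooth muscle-like cells (48.9%), 8 of 34 in fibroblast-like cells (48.7%) and 10 of 28 in macrophage-like cells (49.3%). The 4 classes come from the same libraries and are not independent. Markers of other cell types in the endothelial-like sums differed between the groups. The 11 smooth muscle markers summed to 8.61 to 13.4 per 10000 UMIs in the flox controls and 4.15 to 6.69 in the knockouts, with at most 4 of 11 at 0 in a library. The 12 fibroblast markers summed to 9.69 to 21.5 and 7.69 to 14.4, with at most 1 of 12 at 0, and the 12 macrophage markers to 0.84 to 1.44 and 0.84 to 2.06, with up to 8 of 12 at 0. The part of these markers in the endothelial differences was not tested.

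The difference in genotype effect between endothelial-like cells and the mean of the other 3 classes was tested directly. It was called for 0 of 31 members and for 0 of 12735 genes (0.0%). At an unadjusted p under 0.05 it was met by 6 of 31 members (5.85% of all genes): Eprs (-0.39 ± 0.15), Nars2 (-1.24 ± 0.46), Wars2 (-0.69 ± 0.29) and Lars (-0.46 ± 0.20) lower, and Kars (0.49 ± 0.22) and Wars (1.04 ± 0.42) higher. Their adjusted p in edgeR lay at 0.83 and 0.84.

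Outside the endothelium the members with the smallest p did not pass either. In macrophage-like cells Rars was lower in all 4 knockouts than in all 3 controls at the values given above (log2 -0.54 ± 0.17, edgeR adjusted p = 0.58). Rars2 read 16.5, 12.7 and 15.3 CPM in the controls and 8.83, 10.5, 7.50 and 8.07 in the knockouts (log2 -0.73 ± 0.26, adjusted p = 0.58 in edgeR). Nars was the third without overlap and lower, at 243.3, 232.9 and 300.5 CPM in the controls and 142.9, 224.5, 221.9 and 202.6 CPM in the knockouts (log2 -0.39 ± 0.20, edgeR adjusted p = 0.63). Such separation was met by 3 of 28 members and by 3.89% of all genes in this direction, and in the other direction by 0 members and 5.62% of all genes. The summed cytosolic share of macrophage-like UMIs ran from 869 to 963 UMIs per 1000000 in the controls and from 773 to 813 in the knockouts. Nars and Rars held 3966 and 2183 of the 15956 UMIs in this sum, so the share partly repeats their values. It was not tested between genotypes. Macrophage markers in the macrophage-like cells ran from 122.5 to 155.5 per 10000 UMIs in the controls and from 160.0 to 175.1 in the knockouts, with 0 of 12 at 0, and fibroblast markers from 4.08 to 17.7 and from 3.04 to 8.24. Their part in the result was not tested.

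In fibroblast-like cells Mars2 was lower in the knockouts without overlap (2.62% of all genes in this direction), at 2.98, 2.58 and 4.06 CPM against 2.04, 2.25, 2.31 and 2.02 CPM (log2 -0.54 ± 0.22, edgeR adjusted p = 0.96). Qars, the glutamine enzyme, was higher without overlap (3.02% of all genes in this direction; log2 0.20 ± 0.11, edgeR adjusted p = 0.96). Vars, the valine enzyme, and Iars followed by p with log2 differences of -0.38 ± 0.19 and -0.34 ± 0.18. In smooth muscle-like cells Fars2 read 20.8, 19.5 and 11.8 CPM in the controls and 12.2, 11.4, 12.1 and 2.29 CPM in the knockouts, and the groups overlapped (log2 -0.72 ± 0.30, edgeR adjusted p = 0.93). The 2.29 CPM is from knockout 4, whose 338 smooth muscle-like cells gave 143 UMIs over all mitochondrial members together. No member separated the groups there, higher or lower, as 2.88% and 2.6% of all genes did. Cars and Kars came next, at -0.29 ± 0.15 and 0.22 ± 0.12. Wars differed by 0.01, -0.01 and -0.10 on the log2 scale in smooth muscle-like, fibroblast-like and macrophage-like cells. Genes of the ATF4, interferon, scaffold and elongation factor lists were called between genotypes in 0 cases in any class.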

How the data were processed

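Files hold UMI counts by gene and barcode as deposited, not normalized, for 7 libraries. The submitters' processing notes list STARsolo 2.7.10a, CASAVA 1.8, Seurat and the build mm10, without roles; annotation and barcode selection are not stated. Libraries were numbered in accession order, since the label of flox control 2 carries conflicting numbers. Cells with under 200 genes or over 25% mitochondrial UMIs were removed, as were doublets called per library by Scrublet (scanpy 1.11.5, expected rate 0.06). Marker scores gated cells (top score at least 0.25, second at most 0.6 of it, at least 3 markers), a rule set after the data were seen; 12.1% of cells stayed ungated. UMI counts were summed per library and class. edgeR 4.0.16 (TMM, filterByExpr, quasi-likelihood test, Benjamini-Hochberg adjustment over all genes tested, threshold 0.05) tested genotype within each class, and class contrasts over 28 sums with library as a block. CPM are relative to tested UMIs times the TMM factor of the 28 sums; ± after a log2 difference is the SE. Named are the members past a test, or the 3 smallest p, up to 4 per direction between classes, and Wars. Tests were checked on simulated counts. Members and gene lists were chosen with earlier results of these data known. Coordinates are GENCODE vM21.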

Additional observations from a re-analysis of the deposited data

Results flagged for a closer look

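Within the 4 knockout libraries, 6 of 40 groups of values looked at had a single library far from the other 3 by Dixon's test at the 95% level, which chance alone gives in about 1 group in 20. In endothelial-like cells Nars2 stood at 18.2 CPM in knockout 1 against 4.29 to 6.19 in the others, and Aars at 9.81 CPM in knockout 4 against 21.0 to 21.8. Over all libraries, knockout and control, Nars2 had only 51 UMIs in this class and Aars 89. The other 4 flags were all in knockout 4. In smooth muscle-like cells, where that library has 338 cells, Fars2 stood at 2.29 CPM (others 11.4 to 12.2), Iars2 at 27.4 CPM (others 38.4 to 40.3) and Mars2 at 8.38 CPM (others 3.98 to 4.54). In fibroblast-like cells Rars stood at 36.2 CPM in knockout 4 (others 43.7 to 44.5).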

How the results depend on the processing

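Members called between genotypes remained 0 in number under each alternative run, in each class. Of counts past the threshold, 163 stayed within 1.5 times and 14 did not. Over all genes, DESeq2 called 9 genes between genotypes in smooth muscle-like, 6 in fibroblast-like and 4 in macrophage-like cells, and dropping the filter on low counts gave 88 in endothelial-like, 7 in smooth muscle-like and 119 in macrophage-like cells, against 0 in the main analysis. Leaving out each library in turn gave 0 to 3 genes in smooth muscle-like, 0 to 5 in fibroblast-like and 0 to 1 in macrophage-like cells; knockout 4 gave the 3 and the 5, and knockout 4 or flox control 3 the 1. With a limit of 10% mitochondrial UMIs, 10 members rather than 20 were called in smooth muscle-like cells; fewer cells entered, and the cause was not tested. Otherwise members called by class ranged from 11 to 15 in endothelial-like, 15 to 21 in fibroblast-like and 15 to 19 in macrophage-like cells.

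With the replicate number as a block, genes called between genotypes were 4 in smooth muscle-like, 9 in fibroblast-like and 1 in macrophage-like cells and 0 in endothelial-like cells, with 0 members among them. Same-numbered libraries share only a number: their deviations correlated between -0.23 and 0.39, not all above 0.1. Knockout 4 has no partner under this block.

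The sign of the Wars genotype difference, near 0 outside the endothelium, reversed in 13 cases; the cause was not tested. In smooth muscle-like cells (0.01) it became -0.033 with the replicate block, -0.077 without TMM, -0.0030 with the stricter gate, -0.25 with the 10% limit, and lay between -0.16 and 0.14 with a library left out (-0.05 without flox control 3, -0.16 without knockout 1, -0.04 without knockout 4). In fibroblast-like cells (-0.01) it became 0.0034 without the filter, 0.10 without flox control 1, 0.0086 without knockout 2 and 0.13 without knockout 3, and was -0.18 at the lowest with a library left out. In macrophage-like cells (-0.10) it became 0.017 with the replicate block and 0.026 without flox control 1, with -0.21 as the lowest when a library was left out. Of the values of members by class, 395 kept their call, 18 lost it and none turned: Hars2, Fars2 and Wars2 in endothelial-like cells, Mars2 in smooth muscle-like cells without TMM, and Wars in fibroblast-like cells without the filter.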
